A study of Homo sapiens with 4 samples.

Results

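The HOX cluster genes were examined in UM1 cells, a long-established human cell line derived from a squamous cancer of the tongue, after culture in high glucose (16.7 mM) or normal glucose (5.6 mM, called low glucose in the labels). Both groups were the same cell line without any knockdown or added agent, kept for 7 days at their glucose level according to the labels, and each was measured on 2 Affymetrix arrays, 4 in all. According to the labels these are biological replicates, but whether they were separate cultures is not given, so the p-values measure only the spread between these arrays. A member was any gene whose symbol is HOX followed by a cluster letter, A to D, and a number, and which had a probe set annotated to it alone. The brightest of its probe sets stood for each gene. This rule gave 27 of the 39 HOX genes in the RefSeq gene table, out of 18132 genes measured in all. They were all 10 HOXB genes, all 9 HOXC genes, 7 of the 9 HOXD genes and 1 of the 11 HOXA genes, HOXA2. The other HOXA genes are not analysed here, and HOXD3 and HOXD11 were read only by probe sets shared with a neighbour.

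HOX genes encode transcription factors with a homeodomain, a DNA-binding domain that recognises short AT-rich sites, often together with partner proteins of the PBX, MEIS and PREP families. In mammals they lie in 4 clusters on different chromosomes, and genes with the same number in different clusters, the paralogues, descend from 1 ancestral gene. Within a cluster their order along the chromosome follows the order of their expression along the body axis, with low numbers towards the head and high numbers towards the tail and the ends of the limbs. Polycomb proteins hold silent HOX genes in repressive chromatin, MLL complexes keep active ones open, and retinoic acid switches on the low-numbered genes in embryos. Many carcinomas, oral squamous tumours among them, express HOX genes.

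The values are log2 signals from RMA (Robust Multi-array Analysis), which corrects the background and normalises the arrays to each other. The medians of the 4 arrays lay between 5.01 and 5.07 and their 25th percentiles between 3.26 and 3.32. Pearson's r over all probe sets was 0.996 between the high glucose arrays, 0.997 between the normal glucose arrays and 0.946 to 0.947 across groups. The actin control probe sets, a sign of RNA quality, gave a 3' minus 5' log2 difference of 0.35 and 0.42 in high glucose and of 0.71 and 0.74 in normal glucose. Differences are high glucose minus normal glucose, tested with limma over all 18132 genes with Benjamini-Hochberg adjustment. A gene is called where the adjusted p is under 0.05. A two-sided exact permutation test of 1 gene cannot go below p = 0.333 with so few arrays, and the calls therefore draw on the spread limma estimates across genes. A level cannot be compared between genes, because each probe set has its own brightness.

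In high glucose, HOXD9, HOXD10, HOXD13, HOXB3 and 5 of the 9 HOXC genes were called higher, while HOXD8 and HOXB9 were called lower. HOXD9 rose 2.62-fold, HOXD10 1.87-fold and HOXC4 1.62-fold, and HOXD8 and HOXB9 fell by factors of 2.44 and 2.17. Of the 27 HOX genes, 9 were called higher and 2 lower, and 16 were not called. Among all genes tested, 15.5% were called higher and 22.2% lower, 37.7% in either direction. Of the 9 higher genes, 3 kept their call without high glucose replicate 1, 4 without high glucose replicate 2, 5 without normal glucose replicate 1 and 4 without normal glucose replicate 2, and HOXC4, HOXD9 and HOXD10 were among them each time. The share of all genes called also fell in these fits, to between 11.4% and 11.7% higher and between 15.0% and 15.7% lower. HOXB9 and HOXD8 kept their calls in all 4. The median log2 difference was 0.082 over the HOX genes and -0.033 over all genes. The list is short and was given no test as a set. In a bulk sample, fewer cells that express a gene and less of its RNA per cell cannot be told apart.

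**Figure D1:**
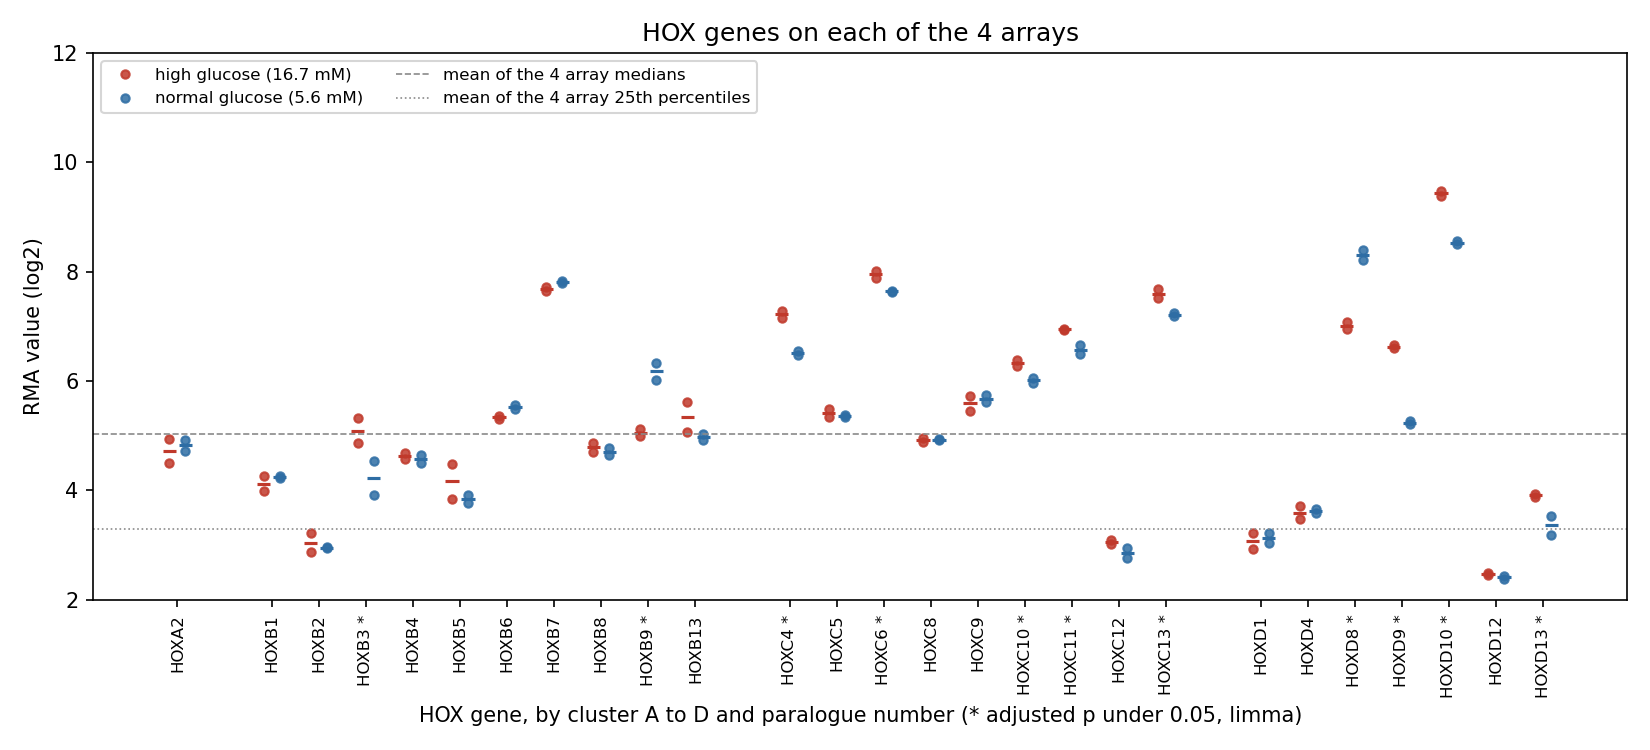
RMA value (log2) of the brightest probe set of each of the 27 HOX genes on each array, by cluster and paralogue number. Red points are the 2 high glucose arrays, blue points the 2 normal glucose arrays, short bars the group means, grey lines the means over the arrays of their median and 25th percentile, and stars the 11 called genes. The 2 groups stand clearest apart at HOXD8, HOXD9, HOXD10, HOXB9 and HOXC4.

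Marker genes moved between the groups as well. Of 7 measured markers of squamous epithelium, 6 were higher in high glucose and 1, EPCAM, was lower, and their mean value was 11.6 and 11.7 on the high glucose arrays and 10.02 and 9.97 on the normal glucose arrays. Of 10 fibroblast markers, 4 were higher (COL3A1, FAP, COL1A1 and COL1A2) and 6 were not called, with a mean of 5.49 and 5.35 in high glucose and 3.82 and 3.74 in normal glucose. Of the 6 not called, LUM, PDGFRA and THY1 lay at or under the 25th percentile on all 4 arrays, DCN was above it on 1 array, COL6A3 on 2 and PDGFRB on 4. Of the markers of leukocytes (4 measured), endothelial cells (5) and melanocytes (3), TEK alone was called, 2.05-fold higher. Several of these marker shifts were larger than any HOX difference, which lay between -1.29 and 1.39 on the log2 scale. The log2 difference was 7.03 for COL3A1, the highest of all genes measured, 5.97 for FAP and 2.55 for COL1A1. COL1A2, under the 25th percentile on both normal glucose arrays, was at least 1.63-fold higher. Among the squamous markers the log2 difference ran from 0.51 for CDH1 to 3.97 for KRT5 and 4.09 for KRT14, and was -3.17 for EPCAM. The part of these shifts and of the actin control in the HOX differences was not tested.

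The HOXD cluster, on chromosome 2, held the largest differences in both directions. HOXD9, which patterns the limb and the lumbar spinal cord in mice, read 6.66 and 6.60 in high glucose, against 5.21 and 5.27 in normal glucose. Both high glucose arrays lay above both normal glucose arrays, and the log2 difference was 1.39 (SE 0.0861, 2 arrays in each group), with limma's adjusted p at 0.000114. HOXD10, a gene known in breast cancer as a target of the microRNA miR-10b, read 9.39 and 9.48 in high glucose, against 8.51 and 8.56 in normal glucose. Again the groups were far apart beside the gap within each, and the log2 difference was 0.90 (SE 0.0878, adjusted p = 0.000629 from limma). HOXD8, which lies next to HOXD9 on its low-numbered side, went the other way. Its values were 7.07 and 6.95 in high glucose, against 8.21 and 8.39 in normal glucose, a log2 difference of -1.29 (SE 0.106, adjusted p = 0.000328 from limma). HOXD13, the last gene of the cluster, in which human mutations cause joined and extra digits, read 3.88 and 3.94 in high glucose, against 3.53 and 3.19 in normal glucose. These values lie between the 25th percentile and the median of the arrays, except normal glucose replicate 2, which lies under the 25th percentile. Its log2 difference was 0.55 (SE 0.131, adjusted p = 0.02 from limma). Without high glucose replicate 1, high glucose replicate 2 or normal glucose replicate 2, its adjusted p in limma was 0.104, 0.129 and 0.075, and the call ended. HOXD1, HOXD4 and HOXD12 were not called, with log2 differences of -0.048, -0.032 and 0.051. HOXD1 and HOXD12 lay under the 25th percentile on every array, so a fall or a small change in them could not be seen here.

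The second probe sets of these genes went the same way. HOXD8 was read by 2 probe sets with log2 differences of -1.29 and -1.28. HOXD9 was read by 2 with 1.39 and 0.71, and HOXD10 by 2 with 0.90 and 0.47. Each of these had an adjusted p of at most 0.0137 from limma over all probe sets. The name of the HOXD8 probe set at -1.29 ends in _x_at, a kind that can bind other transcripts. A probe set shared by HOXD10 and HOXD11 read 9.26 and 9.36 in high glucose, against 8.22 and 8.07 in normal glucose. It was 2.24-fold higher (adjusted p = 0.000442 from limma over all probe sets), and the share of each gene in it is unknown. The probe set shared by HOXD3 and HOXD4 lay between 3.25 and 3.54 on the 4 arrays and was not called (adjusted p = 0.166). The dimmer probe set of HOXD13, under the 25th percentile on all 4 arrays, had a log2 difference of 0.13 and was not called.

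HOXD10 and HOXD8, the genes on either side of HOXD9, moved in opposite directions, and the 250 bases before their starts are shown, with those of HOXC4 from another cluster. RefSeq sequences of the GRCh38.p14 build were at hand for 4 of the 11 called genes, HOXC4, HOXD8, HOXD10 and HOXD13. Capitals mark TAAT, the core that homeodomains bind, or its reverse complement ATTA.
HOXD10, chr2:176116528-176116777, plus strand: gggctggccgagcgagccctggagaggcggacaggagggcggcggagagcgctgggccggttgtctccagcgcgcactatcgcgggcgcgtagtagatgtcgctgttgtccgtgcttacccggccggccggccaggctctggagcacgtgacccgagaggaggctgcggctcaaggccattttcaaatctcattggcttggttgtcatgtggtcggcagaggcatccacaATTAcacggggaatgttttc
HOXD8, chr2:176129455-176129704, plus strand: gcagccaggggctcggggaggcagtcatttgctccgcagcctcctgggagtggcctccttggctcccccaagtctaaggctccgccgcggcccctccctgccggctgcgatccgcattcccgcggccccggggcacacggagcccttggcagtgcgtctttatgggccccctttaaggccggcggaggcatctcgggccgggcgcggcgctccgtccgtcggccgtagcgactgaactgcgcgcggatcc
HOXC4, chr12:54016638-54016887, plus strand: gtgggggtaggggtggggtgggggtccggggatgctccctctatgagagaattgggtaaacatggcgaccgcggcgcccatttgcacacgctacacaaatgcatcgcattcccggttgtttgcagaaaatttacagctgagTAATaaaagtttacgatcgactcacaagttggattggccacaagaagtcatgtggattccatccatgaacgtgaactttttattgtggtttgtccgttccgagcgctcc

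TAAT was searched on both strands and stood once in the windows of HOXD10 and HOXC4 and not in those of HOXD8 and HOXD13, while 47.5% of 34788 windows of the same length in the RefSeq table hold it. The site of PBX and HOX pairs, TGATNNAT, was in none of the 4 windows and in 6.49% of all. The GC box GGGCGG stood once in HOXD10 and at 2 places in HOXD13, against 42.6% of all windows with at least 1. The TATA box TATAAA was found only in HOXD13, on both strands at overlapping places, and in 10.8% of all windows. G and C made up 64.0% of the HOXD10 window, 72.4% of the HOXD8 window and 50.8% of the HOXC4 window. CpG pairs numbered 23, 28 and 14 in these windows, beside a median of 11 over all. The HOXC4 window is also that of HOXC5 in the table. A match says only that these letters are present.

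HOXC genes, on chromosome 12, were the cluster with the largest number of called genes. By limma 5 of 9 were higher and 0 lower, beside 15.5% and 22.2% of all genes. Of the 7 HOXD genes, 3 were higher and 1 was lower. At an unadjusted p under 0.05, limma and the methods' t-test also gave 0 lower HOXC genes. Of the 9 HOXC genes, 7 lay above the median on all 4 arrays. Among all genes with such levels, 20.9% were higher and 35.9% lower. HOXC4, which in mouse B cells promotes antibody class switching, read 7.27 and 7.16 in high glucose, against 6.49 and 6.55 in normal glucose. The log2 difference was 0.70 (SE 0.0907, adjusted p = 0.0019 from limma), the largest of the cluster. HOXC13, which controls hair keratin genes and whose human mutations affect hair and nails, read 7.68 and 7.52 in high glucose, against 7.24 and 7.18 in normal glucose. HOXC11 read 6.95 and 6.93 in high glucose, against 6.66 and 6.49 in normal glucose. HOXC10, which marks lumbar segments in mice, read 6.38 and 6.28 in high glucose, against 6.06 and 5.96 in normal glucose. HOXC6 read 7.89 and 8.02 in high glucose, against 7.63 and 7.65 in normal glucose. In each of these genes the 2 groups did not overlap, but the distance between them was small, at 1.31-fold for HOXC13, 1.29-fold for HOXC11, 1.25-fold for HOXC10 and 1.24-fold for HOXC6. Their adjusted p from limma were 0.0234, 0.0279, 0.0418 and 0.0394.

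These small rises in the HOXC cluster kept their direction, but their calls were often lost with 1 array left out or with another test. With 1 array left out, the log2 difference was 0.25 to 0.38 for HOXC6 and 0.26 to 0.37 for HOXC10. It was 0.29 to 0.45 for HOXC11 and 0.31 to 0.47 for HOXC13. The calls of HOXC6 and HOXC10 ended whichever of the 4 arrays was left out, with adjusted p from limma of 0.072 to 0.163 and 0.0896 to 0.178. That of HOXC11 ended without high glucose replicate 1, high glucose replicate 2 or normal glucose replicate 2 (0.128, 0.114 and 0.128). That of HOXC13 ended without high glucose replicate 1, normal glucose replicate 1 or normal glucose replicate 2 (0.118, 0.0891 and 0.123). HOXC4 kept its call each time (0.0171 to 0.026). With any 1 array left out, fewer HOXC genes were called higher, and so were fewer of all genes. With each array centred on its median, 3 HOXC genes were called higher, beside 14.5% of all genes. HOXC6 and HOXC10 lost their calls there (limma's adjusted p = 0.0639 and 0.0599). HOXC6 also lost its call with the mean of its 3 probe sets (0.229). The number of HOXC genes called higher was 3 with the replicate number as a block (13.9% of all genes). It was 1 at the thresholds of the methods (10.6%) or at an adjusted p under 0.01 (11.3%). It was 0 with the methods' t-test after adjustment (7.43%), where HOXC11 and HOXC13 had an adjusted p of 0.133 and 0.126.

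HOXC5, HOXC8, HOXC9 and HOXC12 were not called, with log2 differences of 0.051, 0.0004, -0.085 and 0.21. HOXC5 lies between HOXC4 and HOXC6 and shares its upstream window with HOXC4 in the RefSeq table. It read 5.34 and 5.49 in high glucose and 5.34 and 5.38 in normal glucose. Its 95% interval, -0.18 to 0.29, lies below that of HOXC4, 0.48 to 0.92, although the difference between the genes was not tested. HOXC8, a mid-trunk gene in the mouse skeleton, had an interval of -0.21 to 0.21. HOXC12 lay under the 25th percentile on all 4 arrays. A second, dimmer probe set of HOXC11 was 1.44-fold higher (adjusted p = 0.00557 from limma over all probe sets). The other probe sets of HOXC6 had log2 differences of 0.19 and -0.065 and were not called.

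**Figure D2:**
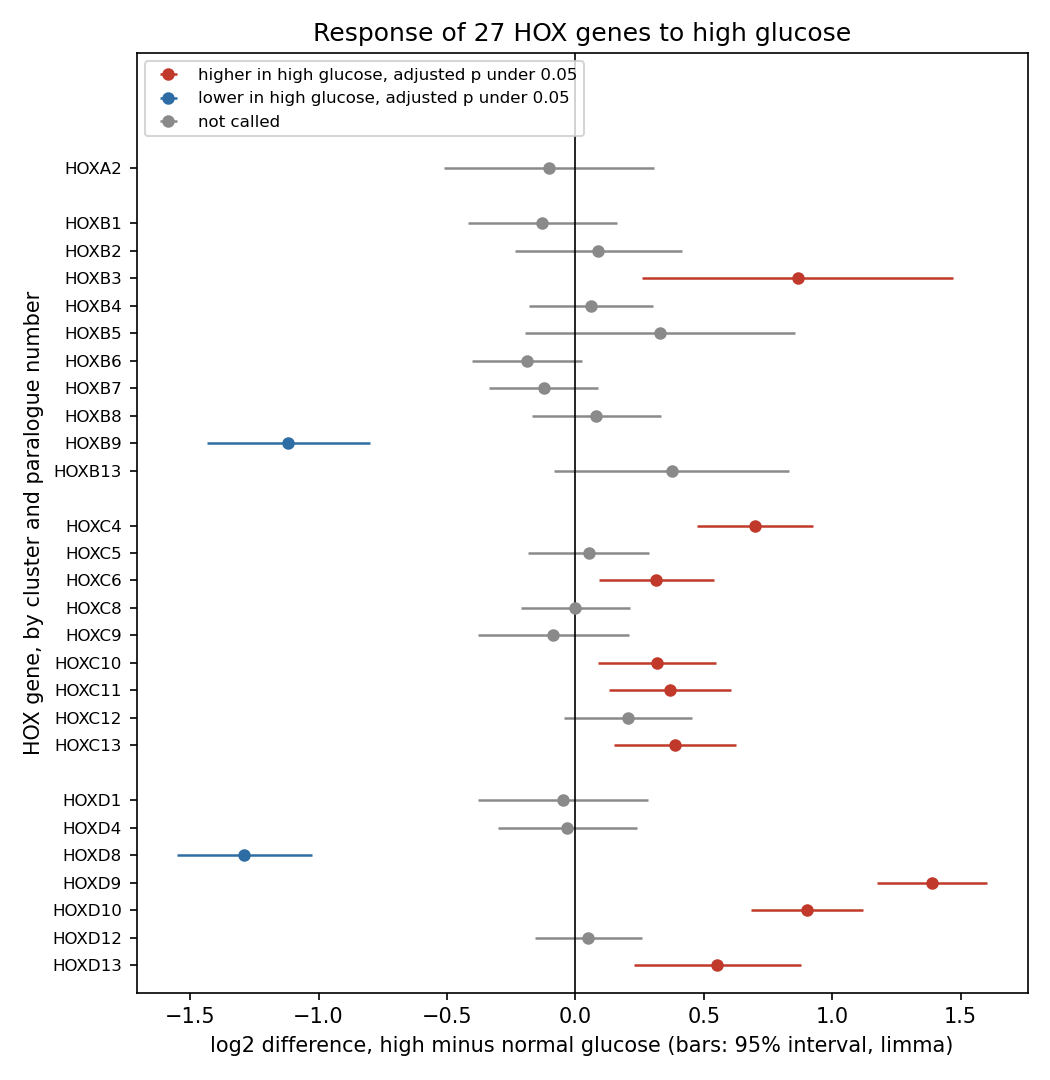
Log2 difference, high minus normal glucose, of each HOX gene with its 95% interval from limma, by cluster and paralogue number. Red genes were called higher, blue genes lower and grey genes not called. HOXD8 at -1.29 stands next to HOXD9 at 1.39.

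Most genes of the HOXB cluster, on chromosome 17, were not called. HOXB9, which acts in mice on the rib cage and mammary gland, read 4.99 and 5.13 in high glucose, against 6.02 and 6.33 in normal glucose. The groups did not overlap, and the log2 difference was -1.12 (SE 0.128, adjusted p = 0.00118 from limma). It has 1 probe set of its own. HOXB3, a hindbrain gene in mouse embryos, read 5.32 and 4.87 in high glucose, against 3.92 and 4.54 in normal glucose. The groups did not overlap, but the space between them was smaller than the gap within either. The log2 difference was 0.87 (SE 0.244, adjusted p = 0.037 from limma), and the call ended without high glucose replicate 1, high glucose replicate 2 or normal glucose replicate 1 (0.223, 0.0771 and 0.179). Another probe set of HOXB3 was tighter, at 5.23 and 5.09 in high glucose and 3.84 and 3.90 in normal glucose, 2.45-fold higher (adjusted p = 0.000245 from limma over all probe sets). The 2 further probe sets of HOXB3 had log2 differences of 0.19 and 0.39 and were not called.

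HOXB7 was well above the array medians without a call. It read 7.73 and 7.66 in high glucose, against 7.80 and 7.84 in normal glucose, a log2 difference of -0.12 with a 95% interval of -0.34 to 0.09 (adjusted p = 0.33 from limma). The interval of HOXB9, in the same cluster, is -1.44 to -0.80. HOXB6 had a difference of -0.19, its 2 groups apart, and HOXB8 one of 0.082, its groups overlapping. HOXB13, known in the prostate, read 5.07 and 5.62 in high glucose, against 5.03 and 4.91 in normal glucose (adjusted p = 0.177 from limma). Its 4 probe sets ranged from -0.23 to 0.44 on the log2 scale, and it was called higher only in the fit without high glucose replicate 1. HOXB5 read 4.49 and 3.85 in high glucose, against 3.76 and 3.92 in normal glucose, and was called higher only in the fit without high glucose replicate 2. HOXB1, HOXB2 and HOXB4 had differences of -0.13, 0.089 and 0.06, and HOXB2 lay under the 25th percentile on all 4 arrays.

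HOXA2, which in mouse embryos sets the identity of the second pharyngeal arch, was the single HOXA gene measured, on chromosome 7. It read 4.94 and 4.50 in high glucose, against 4.73 and 4.92 in normal glucose, so the groups overlapped (adjusted p = 0.699 from limma).

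**Figure D3:**
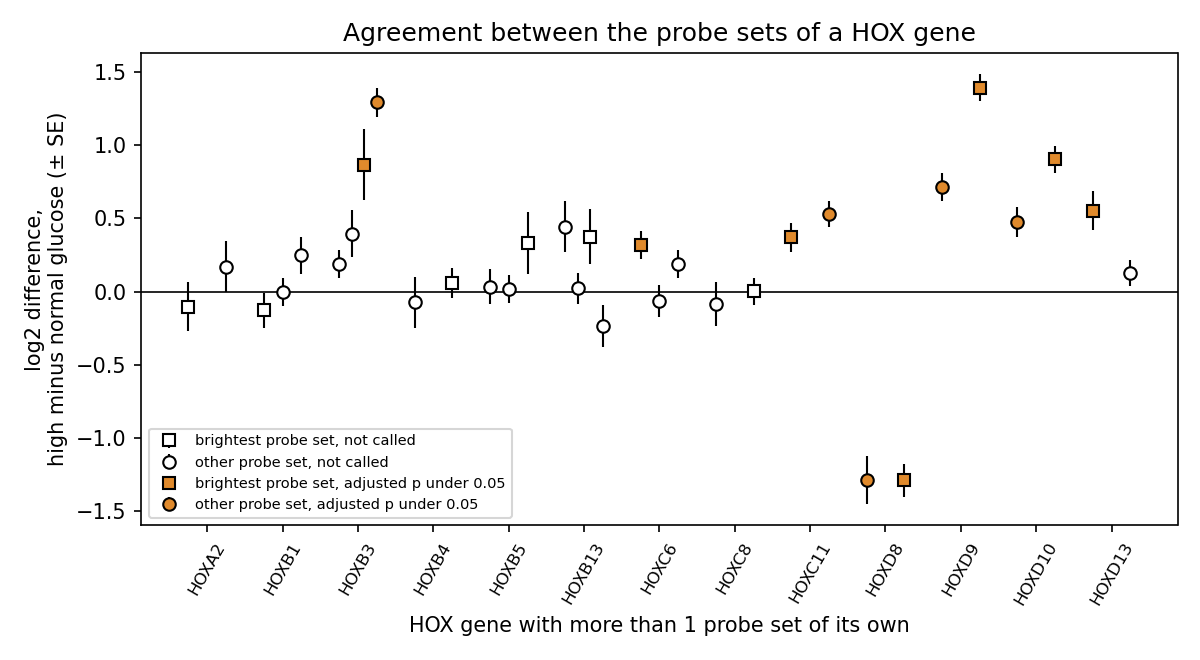
Log2 difference, high minus normal glucose, with its standard error, for each probe set of the 13 HOX genes that have more than 1. Squares are the brightest probe set, circles the others, and filled symbols have an adjusted p under 0.05 from limma over all probe sets. The probe sets of HOXD8, HOXD9, HOXD10, HOXC11 and HOXB3 point 1 way, while those of HOXC6 and HOXB13 lie on both sides of 0.

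By place in the clusters, 6 of 11 genes of the posterior groups 9 to 13 were higher and 1 was lower. Their median log2 difference was 0.37. Among all genes, 15.5% were higher and 22.2% lower. Of 11 genes of the central groups 4 to 8, 2 were higher and 1 was lower (median 0.051), and of 5 anterior genes of groups 1 to 3, HOXB3 was higher (median -0.048). Paralogues moved together in some groups and not in others. In group 9, HOXD9 rose, HOXB9 fell and HOXC9 had a difference of -0.085. In group 8, HOXD8 fell, while HOXB8 and HOXC8 were not called. In group 10, HOXC10 and HOXD10 were both higher, and in group 13 so were HOXC13 and HOXD13, with HOXB13 not called. In group 4, HOXC4 rose and HOXB4 and HOXD4 were not called. These are counts of few genes, and differences between the positions were not tested. With any 1 array left out, some of the 6 higher posterior genes lost their call, and fewer of all genes were called higher.

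Dim genes can hide a change. Of the 27 HOX genes, 12 lay above the median on all 4 arrays, and of these 7 were higher and 1 was lower. Fewer of them were called higher when 1 array was left out, and so were fewer of all genes. Among the 9358 genes with such levels in the whole series, 20.9% were higher and 35.9% lower. Another 12 HOX genes lay at or under the median on all 4 arrays, and HOXD13 alone of them was called, while in the whole series 4.56% of such genes were higher and 3.97% lower. The other 3, HOXB3, HOXB9 and HOXB13, crossed the median. HOXB2, HOXC12, HOXD1 and HOXD12 lay at or under the 25th percentile on every array. Both high glucose arrays lay above both normal glucose arrays in 12 HOX genes, which 27.5% of all genes did, and below them in 4, which 37.3% of all genes did. With the cut-offs of the study's methods (1.5-fold up or 0.67-fold down, and 0.05 for the p before adjustment), 4 HOX genes were higher (HOXB3, HOXC4, HOXD9 and HOXD10) and 2 were lower, beside 10.6% and 13.4% of all genes.

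Among the partners of HOX proteins, MEIS1 rose most. It read 5.79 and 5.73 in high glucose, against 2.91 and 3.03 in normal glucose, where both arrays lay under their 25th percentile. Against that floor it was at least 5.55-fold higher (adjusted p = 1.4e-05 from limma). Of 8 measured PBX, MEIS and PREP genes, 4 were higher and 1 was lower, beside 15.5% and 22.2% of all genes. PBX3 and PKNOX1, the gene of PREP1, were 1.43-fold and 1.44-fold higher. PBX2 was lower by a factor of 1.42, read as 6.61 and 6.54 in high glucose and 7.16 and 7.00 in normal glucose. Of the 4 higher genes, 2 kept their call without high glucose replicate 2, where 11.5% of all genes were called higher. The call of PBX2 ended without high glucose replicate 1, high glucose replicate 2 or normal glucose replicate 1 (limma's adjusted p = 0.0516, 0.071 and 0.0616), and that of PBX3 without high glucose replicate 2 or normal glucose replicate 2 (0.0639 and 0.0577). PBX3 and PKNOX1 also lost their calls with the mean of all their probe sets in place of the brightest (adjusted p = 0.133 and 0.227).

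Genes of the chromatin proteins that keep HOX clusters silent or open moved both ways. Of 20 measured Polycomb genes, 4 were higher and 9 lower, and 19 lay above the median on all 4 arrays. Among all genes with such levels, 20.9% were higher and 35.9% lower. PHF19 and PHF1, alternative accessory subunits of Polycomb complex 2, went apart. PHF19 read 7.82 and 7.64 in high glucose, against 5.72 and 5.52 in normal glucose, a rise of 4.32-fold. PHF1 read 6.81 and 6.73 in high glucose, against 8.47 and 8.34 in normal glucose, lower by a factor of 3.1. CBX6 and PHC3, subunits of Polycomb complex 1, were lower by factors of 3.68 and 2.19. EZH2, the methyltransferase of complex 2, was not called, with a log2 difference of -0.085. Of the 9 lower genes, 5 kept their call without normal glucose replicate 1 or normal glucose replicate 2, fits in which 15.7% and 15.0% of all genes were called lower. Of 15 genes of MLL complexes and of the enzymes that remove the Polycomb mark, 2 were higher and 7 lower. Of these 15, 14 lay above the median on all 4 arrays, and the same shares of all genes apply. Neither list was tested as a set. MLLT3, a partner of the elongation machinery, was 4.73-fold higher and DOT1L, the histone methyltransferase that binds it, was lower by a factor of 1.9. The demethylases KDM6A and KDM6B differed in direction, KDM6A 2.88-fold higher and KDM6B lower by a factor of 2.31. KDM6B was read by a probe set whose name ends in _x_at, a kind that can bind other transcripts. Without such probe sets the 7 lower genes kept their calls, beside 21.9% of all genes called lower.

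With the marker genes left aside, retinoic acid genes showed the widest spread around the HOX genes. Of 16 measured, 5 were higher and 4 lower, beside 15.5% and 22.2% of all genes, with a median log2 difference of -0.063. CRABP2, which carries retinoic acid to its nuclear receptors, read 9.51 and 9.48 in high glucose, against 5.49 and 5.58 in normal glucose, a log2 difference of 3.96 (SE 0.0867) and 15.5-fold higher, with an adjusted p of 5.56e-06 in limma. STRA6, the membrane receptor that takes up retinol, read 5.47 and 5.62 in high glucose, against 8.60 and 8.60 in normal glucose, lower by a factor of 8.33. RDH10, which oxidises retinol, and DHRS3, which reduces retinal back to it, were lower by factors of 2.64 and 2.32. CRABP2 was read by a probe set whose name ends in _x_at. Without such probe sets the 5 higher genes kept their calls, beside 15.3% of all genes called higher. Of the 5 higher genes, 3 kept their call whichever array was left out, beside 11.4% to 11.7% of all genes called higher in these fits.

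Among other homeobox genes, 0 of 13 ParaHox and HOX-linked genes (CDX, GSX, PDX1, EVX, MNX1, GBX and MEOX) were called by limma, with log2 differences between -0.26 and 0.22, and 12 of them lay at or under the median on all 4 arrays. At an unadjusted p under 0.05, 0 of the 13 passed by limma or by the methods' t-test. Of 6 DLX genes, which pattern the jaws and teeth in mice, DLX1 was 2.51-fold higher, read as 5.84 and 5.98 in high glucose and 4.80 and 4.37 in normal glucose. DLX6 was called lower (adjusted p = 0.0366 from limma), but it lay under the 25th percentile on all 4 arrays, and the call ended in each fit without high glucose replicate 1, high glucose replicate 2 or normal glucose replicate 2. Of 18 non-coding genes of the HOX clusters, 1 was measured, HOXB-AS3, at a mean of 3.89 in high glucose and 4.13 in normal glucose (adjusted p = 0.15 from limma).

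The protein-coding genes that flank the clusters, 3 on each side of each, also moved both ways. Of these 24, 7 were higher and 8 lower, beside 15.5% and 22.2% of all genes, with a median log2 difference of -0.024. Of the 24, 21 lay above the median on all 4 arrays. Among all genes with such levels, 20.9% were higher and 35.9% lower. Next to the HOXD cluster, MTX2 on the low-numbered side was lower by a factor of 1.34, and LNPK on the other side had a log2 difference of 0.35 (adjusted p = 0.0561 from limma). Next to the HOXC cluster, SMUG1 was lower by a factor of 1.39 and CBX5, a heterochromatin protein, 1.63-fold higher. Near the HOXB cluster, CBX1, of the same protein family, was 1.78-fold higher. JAZF1 beside the HOXA cluster was 3.05-fold higher and TAX1BP1 there was lower by a factor of 1.78. HNRNPA1, near the HOXC cluster, was 2.80-fold higher by its brightest probe set, whose name ends in _x_at, and had a log2 difference of -0.18 without such probe sets, which can bind other transcripts. MTX2, LNPK, SMUG1 and CBX5 are named here for their place, after their values were seen. Of the 8 lower genes, 5 kept their call without high glucose replicate 1 and 4 without any one of the other arrays, beside 15.0% to 15.7% of all genes called lower in these fits.

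**Figure D4:**
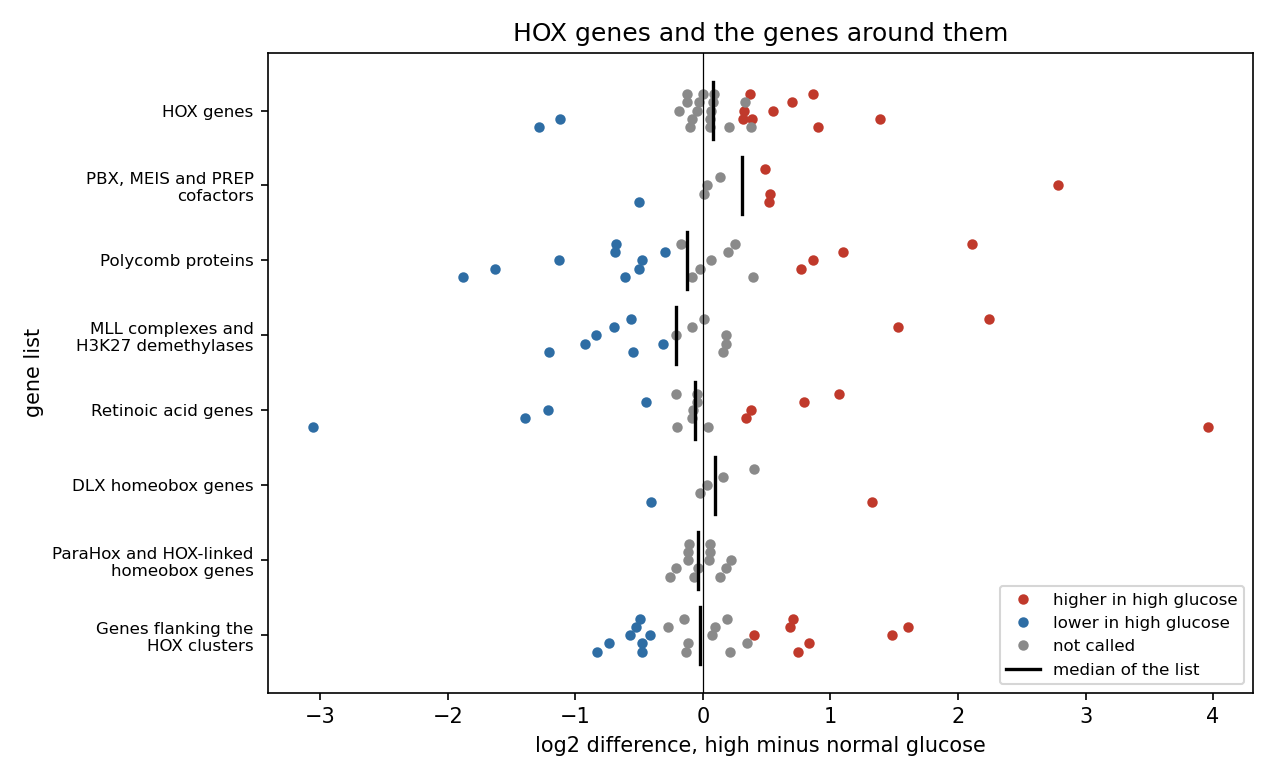
Log2 difference, high minus normal glucose, of the measured genes of each list, 1 point a gene, with the median of the list as a black bar. Red genes were called higher, blue genes lower and grey genes not called (limma, adjusted p under 0.05). The HOX genes lie between -1.29 and 1.39, while MEIS1 at 2.79, CRABP2 at 3.96 and STRA6 at -3.06 lie outside that range.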

How the data were processed

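Per the paper's methods and the submitters' processing notes, the authors used GCOS and RMA (versions not given in the sources used here), and the deposited values are log2 signals per probe set. Although the methods speak of a U133 Plus 2.0 array, the 49395 identifiers belong to PrimeView, and its annotation named the genes. A single gene was listed for 44988 probe sets, several for 1832 and none for 2473, and 102 controls were set aside. Symbols follow the GRCh38.p14 RefSeq gene table. The comparison used lmFit and eBayes of limma 3.58.1 (R 4.3.3), fitted over all genes. Tables and figures were made with Python 3.11.15, pandas 2.3.3 and matplotlib 3.10.9. The fit was tested on simulated data. The members and lists were chosen with earlier results of these data known. Values in each array are given for HOX genes called or with a group mean of 7 or higher, and up to 4 called genes of each list with the largest differences are named, with exceptions marked. EZH2 and HOXB-AS3 are further exceptions, as are HOX genes outside this rule. If both arrays of 1 group were at or below their 25th percentile, that percentile stood in for them and the fold is a lower bound. The number of arrays limits the precision. Tried as alternatives were the mean or median of a gene's probe sets, leaving out _x_at probe sets or dim genes, a floor, 2 further normalizations, a robust limma-trend fit, the methods' t-test, other thresholds, each probe set tested separately, the replicate number as a block, and each array left out.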

Additional observations from a re-analysis of the deposited data

How the results depend on the processing

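Of the 9 HOX genes called higher, 7 to 9 were counted under the other summaries of probe sets and without _x_at probe sets or dim genes. The same held with a floor, the further normalizations, limma-trend and each probe set tested separately. Without dim genes, 15 HOX genes remained and 8 were called higher, beside 26.0% of all genes kept. In the other fits of this kind, 14.5% to 16.7% of all genes were called higher. The number of HOX genes called higher was 4 at the thresholds of the methods (10.6% of all genes), 3 at an adjusted p under 0.01 (11.3%) and 2 with the methods' t-test after adjustment (7.43%). It ranged from 4 to 5 when 1 array was left out (11.4% to 11.7%), with 3 to 5 of the 9, since HOXB13 was newly called without high glucose replicate 1 and HOXB5 without high glucose replicate 2. The 2 lower genes were counted under every alternative except that t-test, which gave 1, HOXD8, with HOXB9 at an adjusted p of 0.0817. HOXD8, HOXD9 and HOXD10 were called under all alternatives run, and HOXC4 under all but the t-test (adjusted p = 0.0506). With the replicate number as a block, 5 HOX genes were higher and 2 lower, beside 13.9% and 19.8% of all genes. The deviations of same-numbered arrays correlated at 0.005 over all probe sets, and whether the numbers pair the arrays is not given. Of the 12 HOX genes called or with a group mean of 7 or higher, 0 changed direction under the alternatives. Among the other named genes, DLX6 had a difference of 0.0024 with the floor, where both groups are set near the floor, and HNRNPA1 one of -0.18 without _x_at probe sets. Beyond these cases the cause of a lost call was not tested.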
